A study of Saccharomyces cerevisiae with 25 samples.

Results

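The genes described here are the hexose-phosphorylating kinases and the paired or tripled isozymes of lower glycolysis in the budding yeast Saccharomyces cerevisiae: HXK1, HXK2 and GLK1, TDH1, TDH2 and TDH3, ENO1 and ENO2, and CDC19 and PYK2. They were taken by name, 10 of the 6648 gene names in the RNA-seq table, as families whose copies are known to differ in nutrient control, and all 10 had a value in all 25 samples. The study followed 1 strain through 6 hours without phosphate, with 1 library every 15 min. Windows of 6 consecutive libraries are used here as groups. In all 25 samples the cells were of the BY4741 background, a haploid laboratory strain of mating type a. All carried YFP driven by the PHO84 promoter as a reporter, and a DAmP (reduced transcript abundance) allele of phm3, an older name of VTC4, whose product makes polyphosphate. Since all samples carry the allele, what follows describes this strain and holds no comparison with cells that lack it. The groups were high phosphate at 0 min (1 library) and 15 to 90 min, 105 to 180 min, 195 to 270 min and 285 to 360 min without phosphate (6 libraries each). The labels name no separate cultures, and consecutive time points stand in for replicates, so p-values measure only the scatter among these samples.

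Hexokinases and glucokinase spend ATP to trap glucose inside the cell, and lower glycolysis returns it: glyceraldehyde-3-phosphate dehydrogenase is the step that takes up inorganic phosphate, enolase makes phosphoenolpyruvate, and pyruvate kinase passes its phosphate to ADP. Yeast keeps a form of each enzyme that dominates on plentiful glucose (Hxk2, Tdh3, Eno2, Cdc19) beside forms that are known to be made more on poor carbon sources, at the end of growth or under stress (Hxk1, Glk1, Tdh1, Eno1, Pyk2). Hxk2 is also a regulator of glucose repression.

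Some copies are so alike that a short read cannot tell them apart. The coding sequences of TDH2 and TDH3 were 95.8% identical, those of ENO1 and ENO2 94.8%, TDH1 and TDH3 88.9%, HXK1 and HXK2 77.8%, and PYK2 and CDC19 67.4%. Coding bases 601 to 690 (counted from the start codon) are shown for 3 of the families to make this visible, from RefSeq build R64, with capitals where a copy differs from TDH3, ENO2 or HXK2.
TDH1: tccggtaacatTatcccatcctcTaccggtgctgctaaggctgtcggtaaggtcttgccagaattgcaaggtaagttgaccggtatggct
TDH2: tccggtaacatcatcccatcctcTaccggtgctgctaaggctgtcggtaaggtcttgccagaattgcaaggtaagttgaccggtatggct
TDH3: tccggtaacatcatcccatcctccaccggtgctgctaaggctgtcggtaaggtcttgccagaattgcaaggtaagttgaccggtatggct
ENO1: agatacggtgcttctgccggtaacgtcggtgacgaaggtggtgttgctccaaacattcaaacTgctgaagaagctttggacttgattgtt
ENO2: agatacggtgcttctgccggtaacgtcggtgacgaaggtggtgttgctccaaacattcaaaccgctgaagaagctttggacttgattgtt
HXK1: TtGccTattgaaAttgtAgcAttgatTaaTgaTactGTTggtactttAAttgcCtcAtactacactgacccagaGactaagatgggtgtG
HXK2: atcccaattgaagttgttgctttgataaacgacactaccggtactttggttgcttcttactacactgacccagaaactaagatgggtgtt
They lie on the plus strand at chrX:338871-338960 (TDH1), the minus strand at chrX:453992-454081 (TDH2), the minus strand at chrVII:883121-883210 (TDH3), the plus strand at chrVII:1001527-1001616 (ENO1), the plus strand at chrVIII:451927-452016 (ENO2), the minus strand at chrVI:254360-254449 (HXK1) and the plus strand at chrVII:24535-24624 (HXK2). In this stretch TDH1 differed from TDH3 at 2 bases and ENO1 from ENO2 at 1, whereas HXK1 differed from HXK2 at 18. Of all stretches of 50 bases within a coding sequence, 31.3% of those of TDH2, 24.4% of TDH3, 15.7% of TDH1 and 23.6% of both enolases occurred elsewhere in the genome, and none of those of HXK1, HXK2, GLK1, CDC19 and PYK2. The deposited values carry the same mark: recovered read numbers were whole in 100% of libraries for those 5 genes, but in only 4 to 12% for the TDH and ENO genes. Levels of the single TDH and ENO genes are therefore uncertain by the way their shared reads were divided, and their sums are given beside them. GLK1 overlaps the annotated YCL042W, and whether counting used the strand was not given in the sources used here.

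Levels are log2 RPM, the base-2 logarithm of reads per 1000000 reads. RPM is a share of a library, so more transcript of a gene and less of the others cannot be told apart. Depth, recovered from the steps of the values, was 4.275 M reads at 0 min, had a median of 1.12 M and was lowest at 285 to 360 min (0.147 to 0.781 M, the smallest at 345 min). VTC4 had 7.51, 7.89 and 10.36 log2 RPM (lowest, median, highest) at 285 to 360 min, against 6.35, 6.90 and 7.36 at 15 to 90 min, and 6.40 at 0 min. The highest value was that of the shallow 345 min library, and the late mean of 8.24 ± 1.06 (SD, n = 6) rests partly on it. All 5 markers of mating type a had a value in all 25 libraries. Of the 4 markers of mating type alpha, MF(ALPHA)2 had none and MF(ALPHA)1 a value in 8 libraries, while STE3 had one in 23 and SAG1 in 21, up to 112 reads. SAG1, with at most 41 reads, averaged 5.20 ± 0.79 log2 RPM at 285 to 360 min and 3.44 ± 0.22 at 15 to 90 min (SD, 4 of 6 libraries with a value in each). Below 10 reads a gene has no value, so its late mean, from shallow libraries, can be too high. The part of SAG1 in the results was not tested. Together the 10 genes held 3.7% of all reads at 0 min and between 4.06 and 8.82% without phosphate.

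Among the hexose kinases the balance between copies turned over. HXK2, the hexokinase of glucose-grown cells, fell, GLK1, the glucokinase, which does not phosphorylate fructose, rose, and HXK1, the second hexokinase, swung up and down within the course. HXK2 had 8.02, 8.85 and 9.02 log2 RPM (lowest, median, highest) at 285 to 360 min, against 9.56, 9.75 and 9.82 at 15 to 90 min. The windows did not overlap, and the lowest libraries were the last, at 345 and 360 min. The difference was −1.05 ± 0.16 (log2, SE), a level 0.481 times that of 15 to 90 min (adjusted p = 7.7e-06). Adjusted p-values here are from limma's moderated test across 4742 genes, with Benjamini-Hochberg adjustment, and a gene was called when adjusted p was under 0.05 and the difference at least 1 on the log2 scale. The SE pools the spread of a gene within all groups, so a wide window counts even where it is not compared. Against the median of all genes, which was 0.36 in this comparison, HXK2 fell by 1.42. The call turned on the fold threshold: without the 360 min library the difference was −0.92, without that of 345 min, which held 46 HXK2 reads (95% Poisson interval 33.7 to 61.4, counting error only), it was −0.98, and with quantile normalization −0.97. Adjusted p ran from 2.29e-06 to 0.00813 over 35 alternatives.

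GLK1 had 9.11, 9.40 and 9.84 log2 RPM (lowest, median, highest) at 285 to 360 min, against 7.36, 8.12 and 8.89 at 15 to 90 min. Again the windows were apart, though the early libraries were spread wide, highest at 45 min and lowest at 75 min. The difference was 1.25 ± 0.44 (adjusted p = 0.0225), or 0.89 above the median of all genes. It was the least secure of the calls: leaving out the 75 min library gave 1.09 (adjusted p = 0.057), centring each library on its median gave 0.73 (adjusted p = 0.194), and allowing for correlation between consecutive libraries gave 1.19 (adjusted p = 0.089). The call was missed in 5 of 35 alternatives. Adjusted p ran from 2.22e-05, without the libraries at 105, 120 and 135 min, to 0.194. Here and below, a library's median was taken over the tested genes with a value in it. The 345 min library listed only 3064 genes, against 4814 to 5514 at 15 to 90 min. Centring thus also carries the effect of missing low values, and its size was not tested.

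HXK1 had 8.70, 9.15 and 9.32 log2 RPM at 285 to 360 min, against 7.38, 8.30 and 9.26 at 15 to 90 min. Its windows overlapped, since the libraries at 45 and 60 min lay within the late range, and the difference of 0.67 ± 0.52 did not pass (adjusted p = 0.297). Without the libraries at 105, 120 and 135 min, limma's adjusted p was 0.0331 for the same difference, which is under the fold threshold. A window mean describes HXK1 poorly, because its level moved through 2 rises. From 6.43 log2 RPM at 0 min it reached 9.26 at 60 min, stood at 6.27 at 120 min, and was at 10.60 at 165 min, 20.2 times its level at 120 min. GLK1 kept nearly the same times: 6.73 at 0 min, 8.89 at 45 min, 6.00 at 120 min and 9.92 at 165 min, a 15.1-fold span. HXK2 over the same libraries moved between 9.42 and 9.88 log2 RPM up to 180 min, so at 120 min it held 83.9% of the reads of the 3 kinases (95% Wilson interval 82.7 to 85.1%, of 3732 reads) and at 165 min 27.3% (26.3 to 28.3%, of 7196 reads).

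**Figure D1:**
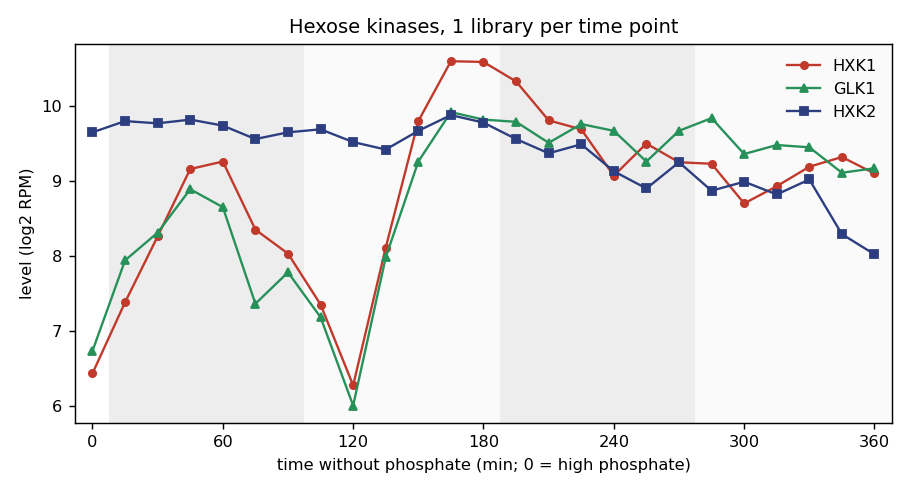
Level (log2 RPM, vertical axis) of HXK1 (red circles), GLK1 (green triangles) and HXK2 (blue squares) against time without phosphate in minutes, 0 being high phosphate. Each point is 1 library and the grey bands are the 4 windows. HXK1 and GLK1 peak at 45 to 60 min, dip at 120 min and peak again at 165 min, while HXK2 lies between 9.42 and 9.88 up to 180 min and is at 8.02 at 360 min.

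Within-library ratios do not depend on scaling and put the kinases on a scale per coding length. The log2 ratio of HXK1 to HXK2 averaged 0.41 ± 0.54 at 285 to 360 min and −1.31 ± 0.71 at 15 to 90 min (SD, n = 6 each). The difference of 1.73 was larger than the spread (exact two-sided permutation test, p = 0.00216, the smallest that 6 against 6 libraries can give). For GLK1 over HXK2 the ratio averaged 0.69 ± 0.31 at 285 to 360 min and −1.61 ± 0.50 at 15 to 90 min, a difference of 2.30 (exact permutation p = 0.00216). All 6 late libraries lay above the highest early one for both ratios. In all, 6 such ratios were tested, and their p-values are not adjusted. Of the kinase reads HXK2 held 25.2 ± 5.09% at 285 to 360 min and 57.0 ± 9.14% at 15 to 90 min, GLK1 41.4 ± 3.34% and 19.3 ± 3.91% in the same windows, and HXK1 33.4 ± 6.32% and 23.7 ± 7.21%. At 0 min HXK2 held 80.7%, GLK1 10.7% and HXK1 8.67%. The summed level of the kinases was 1652 ± 215 RPM at 285 to 360 min and 1525 ± 313 RPM at 15 to 90 min, with 993 RPM at 0 min. Between those windows it swung widely, with 875 RPM at 120 min, 3463 RPM at 165 min and 1815 to 2920 RPM at 195 to 270 min.

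TDH1, the dehydrogenase copy known for its expression as cells stop growing, rose most of the 10. It had 11.61, 11.75 and 12.11 log2 RPM (lowest, median, highest) at 285 to 360 min, against 8.43, 8.65 and 8.84 at 15 to 90 min. Every late library was above every early one by more than the early window's whole range. The difference was 3.18 ± 0.34, or 9.06-fold (adjusted p = 1.01e-07), and TDH1 at 360 min was 21.3 times its level in high phosphate.

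TDH3, by far the most abundant of the 3, had 15.06, 15.17 and 15.31 log2 RPM at 285 to 360 min, against 14.31, 14.42 and 14.52 at 15 to 90 min. Those windows did not overlap either, but the difference of 0.75 ± 0.12 (adjusted p = 1.88e-05) was under the fold threshold. Centring on library medians left 0.23 (adjusted p = 0.174). Over the alternatives adjusted p ran from 5.24e-06 to 0.65. The highest was with quantile normalization (0.07), which cannot show a change in a gene that keeps its rank among all genes. TDH2 had 12.29, 12.37 and 12.58 log2 RPM at 285 to 360 min, against 11.63, 11.92 and 12.06 at 15 to 90 min, a difference of 0.52 ± 0.16 (adjusted p = 0.00874) that was 0.00 after centring. The sum of the 3 genes, which does not depend on how reads were split, was 46136 ± 3397 RPM at 285 to 360 min and 26143 ± 1297 RPM at 15 to 90 min (SD, n = 6 each), with 20700 RPM at 0 min. TDH1 made up 7.91 ± 0.752% of it at 285 to 360 min and 1.54 ± 0.161% at 15 to 90 min, with 1.00% at 0 min.

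Setting the copies against each other, the log2 ratio of TDH1 to TDH3 was −3.35 ± 0.15 at 285 to 360 min and −5.77 ± 0.13 at 15 to 90 min, a difference of 2.43 (exact permutation p = 0.00216, n = 6 each). The ratio of TDH2 to TDH3 moved little and the other way, −2.76 ± 0.05 at 285 to 360 min and −2.53 ± 0.14 at 15 to 90 min, a difference of −0.23 (exact permutation p = 0.00649) with overlapping windows. Its lowest value, −3.25, was in high phosphate, where TDH2 stood at 10.93 log2 RPM, and it was −2.46 in the first library without phosphate. TDH2 was above its 0 min level in all 24 later libraries.

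The enolases showed the same split. ENO1, the copy that glucose does not induce, had 11.68, 11.78 and 11.98 log2 RPM (lowest, median, highest) at 285 to 360 min, against 9.45, 9.50 and 9.69 at 15 to 90 min. Both windows were tight and far apart. ENO1 rose by 2.25 ± 0.31, or 4.76-fold (adjusted p = 3.48e-06). This SE also holds the spread at 105 to 180 min, an SD of 1.17, against 0.10 in each window compared. ENO2, the glucose-induced copy, had 14.05, 14.12 and 14.37 log2 RPM at 285 to 360 min, against 13.63, 13.77 and 13.97 at 15 to 90 min. Its difference of 0.37 ± 0.12 (adjusted p = 0.0136) was under the fold threshold, lay at the median of all genes and changed sign to −0.16 after centring on library medians. The log2 ratio of ENO1 to ENO2 was −2.36 ± 0.13 at 285 to 360 min and −4.25 ± 0.15 at 15 to 90 min, a difference of 1.89 (exact permutation p = 0.00216, n = 6 each). ENO1 thus held 16.3 ± 1.16% of enolase reads at 285 to 360 min and 5.03 ± 0.518% at 15 to 90 min, with 3.09% at 0 min. The enolase sum was 21789 ± 1732 RPM at 285 to 360 min and 14910 ± 1334 RPM at 15 to 90 min.

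PYK2, the minor pyruvate kinase, which glucose represses, shares no 50-base stretch with CDC19, so this pair is free of the doubt about split reads. PYK2 had 7.42, 7.65 and 7.80 log2 RPM (lowest, median, highest) at 285 to 360 min, against 5.81, 6.13 and 6.41 at 15 to 90 min. No late library fell within the early range. The difference was 1.51 ± 0.29, or 2.86-fold (adjusted p = 0.000142), on 27 to 144 reads per late library, and it was 0.99 after centring, just under the fold threshold. CDC19, the main pyruvate kinase, had 12.14, 12.39 and 12.52 log2 RPM at 285 to 360 min, against 11.65, 12.01 and 12.15 at 15 to 90 min. The CDC19 windows touched, the library at 360 min being the low one. Its difference of 0.41 ± 0.14 (adjusted p = 0.0165) was under the fold threshold and −0.11 after centring. The log2 ratio of PYK2 to CDC19 was −4.76 ± 0.22 at 285 to 360 min and −5.87 ± 0.29 at 15 to 90 min, a difference of 1.11 (exact permutation p = 0.00216, n = 6 each), and PYK2 held 3.63 ± 0.563% of pyruvate kinase reads at 285 to 360 min and 1.73 ± 0.328% at 15 to 90 min, with 1.01% at 0 min.

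**Figure D2:**
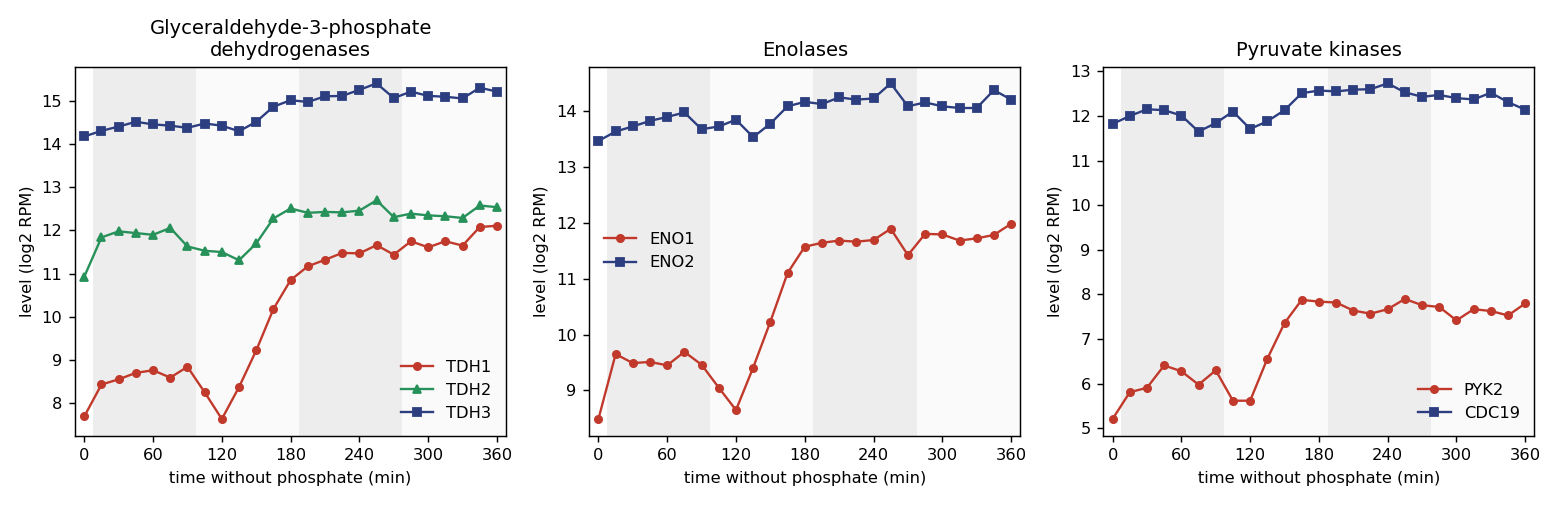
Level (log2 RPM) of the dehydrogenase, enolase and pyruvate kinase genes against time without phosphate in minutes, 1 library per point, with the minor copy of each family in red. TDH1, ENO1 and PYK2 are lowest around 105 to 120 min among the libraries without phosphate and then climb, TDH1 to 12.11 and ENO1 to 11.98 at 360 min, while TDH3, ENO2 and CDC19 stay at the top of their panels throughout.

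Over the 10 genes, 4 rose (GLK1, TDH1, ENO1 and PYK2) and 1 fell (HXK2) at 285 to 360 min against 15 to 90 min, where 12.9% of the 4742 genes tested were called higher and 3.4% lower. Their median difference was 0.71, beside 0.36 over all genes. The 4 that rose had lower levels at 15 to 90 min than HXK2, TDH3, ENO2 or CDC19, the dominant copies of their families, and no dominant copy was called higher.

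**Figure D3:**
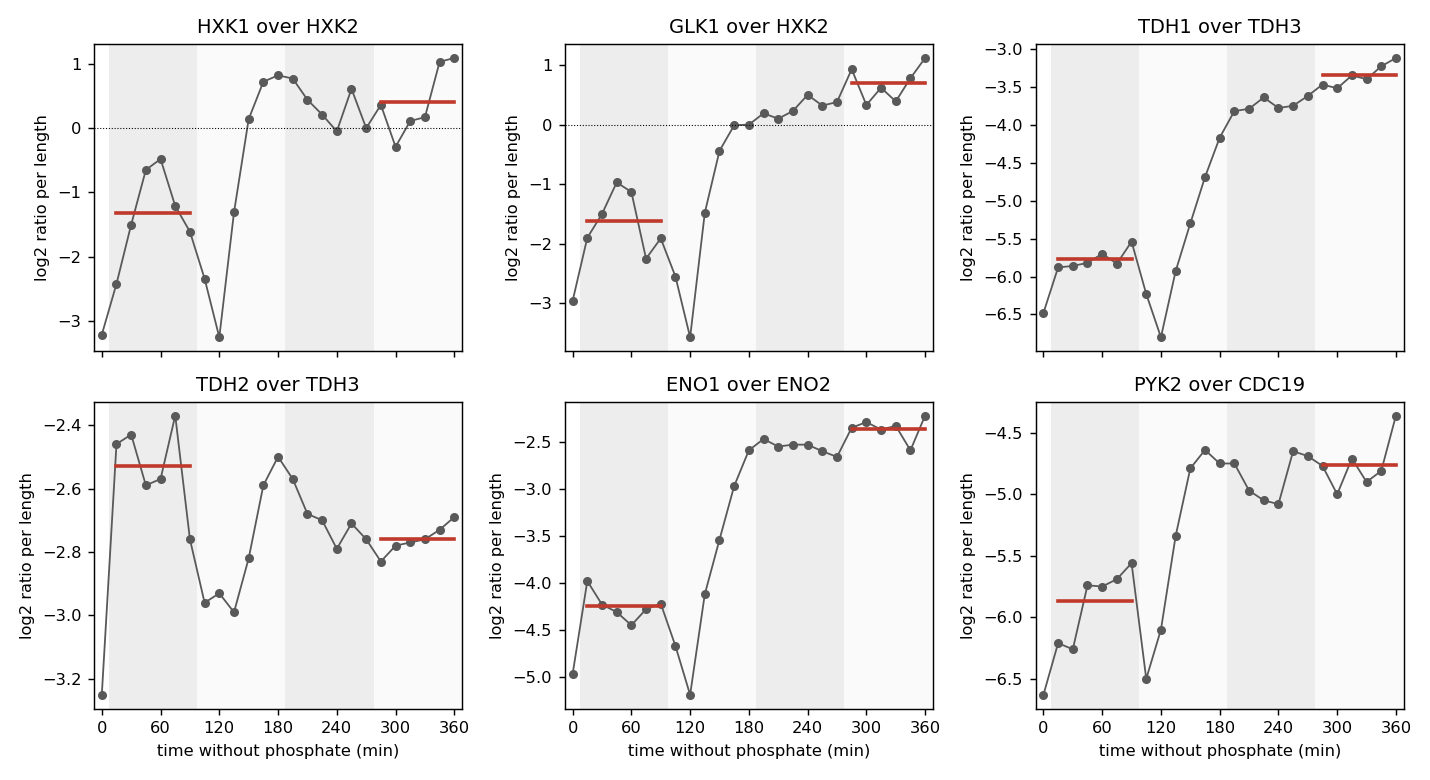
Log2 ratio per coding length of the 2 genes named above each panel, against time without phosphate in minutes; each point is 1 library and the red bars are the means at 15 to 90 and 285 to 360 min. Every ratio but TDH2 over TDH3 has a late mean above its early mean, TDH1 over TDH3 by 2.43 and PYK2 over CDC19 by 1.11. TDH2 over TDH3 spans a much narrower range, with its lowest value of −3.25 at 0 min.

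HXK1, GLK1, TDH1, ENO1 and PYK2 climbed between 120 and 180 min. HXK2 had 9.78 log2 RPM at 180 min, against 9.52 at 120 min, and declined only after that. Windows of 3 libraries were therefore also compared, a division made after the values had been seen. At 150, 165 and 180 min HXK1 had 9.80, 10.60 and 10.59 log2 RPM, against 7.35, 6.27 and 8.11 at 105, 120 and 135 min, and rose by 3.09 ± 0.41, or 8.51-fold (adjusted p = 2.96e-05). GLK1 had 9.26, 9.92 and 9.82 log2 RPM in the later libraries, against 7.18, 6.00 and 7.98 in the earlier ones, a rise of 2.62 ± 0.36 (adjusted p = 3.61e-05). In both kinases the library at 120 min was the lowest and the windows did not overlap.

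TDH1 followed, with 9.22, 10.18 and 10.85 log2 RPM at 150 to 180 min, against 8.25, 7.63 and 8.37 at 105 to 135 min (2.0 ± 0.27, adjusted p = 3.09e-05). ENO1 had 10.23, 11.10 and 11.57 log2 RPM at 150 to 180 min, against 9.05, 8.65 and 9.41 at 105 to 135 min (1.93 ± 0.24, adjusted p = 2.58e-05). Unlike the kinases, TDH1 and ENO1 were still climbing at 180 min. PYK2 had 7.36, 7.88 and 7.84 log2 RPM at 150 to 180 min, against 5.62, 5.62 and 6.56 at 105 to 135 min (1.76 ± 0.22, adjusted p = 2.58e-05). These 5 of 10 genes were called higher where 8.14% of all genes were, and none was called lower, against 6.41% of all genes. The median over the 10 was 1.24, beside 0.24 over all genes. HXK2 (0.23 ± 0.19, adjusted p = 0.366), ENO2 (0.31 ± 0.16, adjusted p = 0.141), TDH3 (0.40 ± 0.15, adjusted p = 0.0467), CDC19 (0.51 ± 0.16, adjusted p = 0.0198) and TDH2 (0.72 ± 0.18, adjusted p = 0.00437) were not called.

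**Figure D4:**
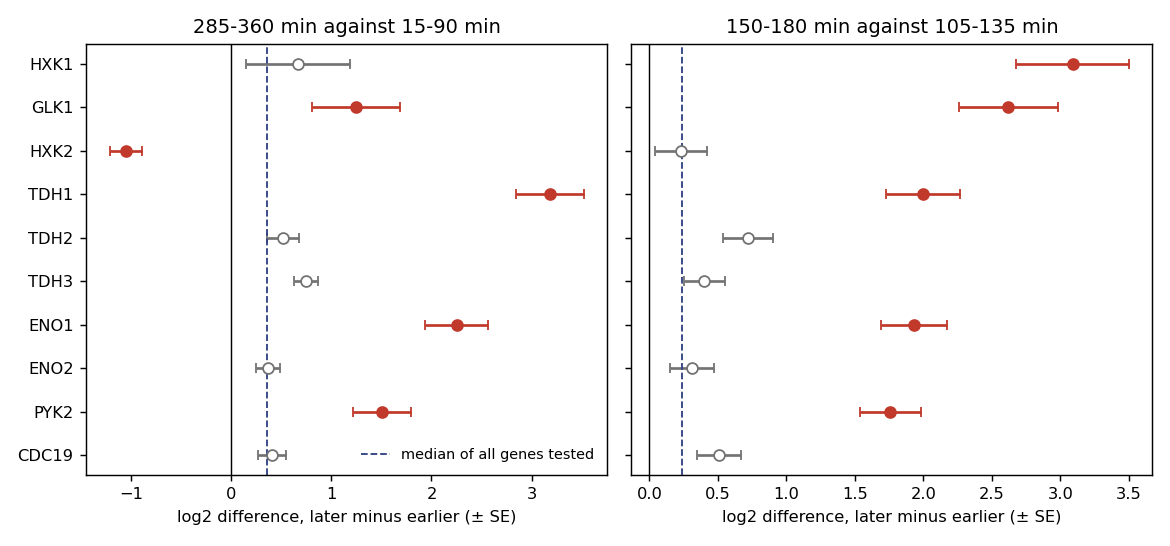
Log2 difference (later minus earlier, with SE bars) of each gene for 285 to 360 min against 15 to 90 min (left) and 150 to 180 min against 105 to 135 min (right). Filled red points passed adjusted p under 0.05 and a difference of at least 1, and the dashed line is the median of all genes tested, 0.36 on the left and 0.24 on the right. HXK1 has the largest difference on the right, 3.09, and is not called on the left.

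The dip before this rise was not called for any of the 10. At 105 to 135 min against 60 to 90 min, HXK1 differed by −1.31 ± 0.41 (adjusted p = 0.219), GLK1 by −0.88 ± 0.36 (adjusted p = 0.337) and TDH1 by −0.65 ± 0.27 (adjusted p = 0.339). limma called 0 of 10 here and 0.148% of all genes, all lower. At an unadjusted p under 0.05 it would have been 5 of the 10 and 570 of all genes, and limma with voom weights also called 0 of the 10. GLK1 at 120 min was below its level in high phosphate (6.00 against 6.73 log2 RPM), as was HXK1 (6.27 against 6.43).

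In the first 90 min no member passed against the single high-phosphate library, where 0.127% of all genes were called higher and 0.0211% lower. With 1 library at 0 min, these errors assume that it varies like the other groups. The largest differences were those of HXK1 (1.98 ± 0.97, adjusted p = 0.92), GLK1 (1.43 ± 0.83, adjusted p = 0.92) and ENO1 (1.05 ± 0.59, adjusted p = 0.92). The smallest p was that of TDH2 (0.96 ± 0.30, adjusted p = 0.649), the only one of the 10 under 0.05 without adjustment, among 210 of all genes, and limma with voom weights called 0 of the 10. The median over the 10 was 0.93, beside 0.10 over all genes. HXK1 was called when the libraries at 105, 120 and 135 min were left out of the fit (1.98, adjusted p = 0.0445, with a range of 0.0445 to 1 over the alternatives). Neither group compared holds those libraries, and the difference stayed the same, but the errors pool the spread within all groups. The SD of HXK1 was 1.81 at 105 to 180 min and 0.71 at 15 to 90 min.

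Whole-window comparisons across the dip depended on those 3 libraries. At 105 to 180 min against 15 to 90 min limma called 0 of the 10 and 0% of all genes (234 at an unadjusted p under 0.05, PYK2 among them, and 1 with voom weights, none of the 10). Without the 3 libraries HXK1 (1.92), PYK2 (1.58), GLK1 (1.51), TDH1 (1.44) and ENO1 (1.43) were called, on the 3 libraries left. In that setting 226 of the 4742 genes tested were called. The libraries left out are those of the dip, so a larger difference follows from the choice. At 195 to 270 min against 105 to 180 min 3 of 10 genes were called, where 8.31% of all genes were (5.08% higher and 3.23% lower), and all 3 were higher: TDH1 by 2.34 ± 0.34 (adjusted p = 5.16e-05), ENO1 by 1.66 ± 0.31 (adjusted p = 0.000409) and GLK1 by 1.25 ± 0.44 (adjusted p = 0.033). Without the libraries at 105, 120 and 135 min only TDH1 kept its call (1.34), while ENO1 differed by 0.70 and GLK1 by −0.06. Of all genes 127 were then called, against 394. GLK1 also lost this call when any 1 of the libraries at 105, 120, 135, 195, 225 or 270 min was left out. Over 35 alternatives its adjusted p ran from 0.00677 to 0.929, that of ENO1 from 4.09e-06 to 0.0354 and that of TDH1 from 5.18e-07 to 0.00491. PYK2, at 0.91 ± 0.29 (adjusted p = 0.0184), gained it without the library at 150, 165 or 180 min (1.02 to 1.13).

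A smooth curve through the 24 libraries without phosphate, which uses no windows, was called for 6 of the 10 genes (HXK1, HXK2, GLK1, TDH1, ENO1 and PYK2), where 39.4% of all genes were called. The rule was limma's F-test on a spline of time, adjusted p under 0.05 and a fitted range of at least 1. Fitted ranges were 3.85 for TDH1 (adjusted p = 9.93e-12), 2.84 for ENO1 (adjusted p = 9.13e-11), 2.47 for GLK1, 2.36 for HXK1, 1.99 for PYK2 and 1.55 for HXK2. The uncalled 4 had ranges from 0.48 (ENO2) to 0.89 (TDH2), all with adjusted p under 0.05. By the fitted curve HXK2 was highest at 15 min and lowest at 360 min, HXK1 was highest at 195 min, PYK2 at 210 min and GLK1 at 225 min, and TDH1 and ENO1 were highest at the last time point.

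Per coding length the order of the 10 genes changed below the top pair. On the log2 RPKM scale TDH3 (15.17 ± 0.10 at 285 to 360 min, 14.18 at 0 min) and ENO2 (13.76 ± 0.12 at 285 to 360 min, 13.07 at 0 min) stood first and second in every window. At 285 to 360 min they were followed by TDH2 (12.42 ± 0.12), TDH1 (11.83 ± 0.22), CDC19 (11.78 ± 0.13), ENO1 (11.40 ± 0.10), GLK1 (8.81 ± 0.26), HXK1 (8.53 ± 0.23), HXK2 (8.12 ± 0.41) and PYK2 (7.02 ± 0.14). In that window the ranges of TDH1 and CDC19 overlapped, as did those of CDC19 and ENO1, GLK1 and HXK1, and HXK1 and HXK2. At 0 min CDC19 (11.23), TDH2 (10.93), HXK2 (9.10), ENO1 (8.10), TDH1 (7.70), GLK1 (6.14), HXK1 (5.88) and PYK2 (4.60) followed in that order. HXK2 thus stood first of the 3 kinases at 0 min and had the lowest mean of them from 195 min on.

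The upstream sequences of HXK1, GLK1, TDH1 and HXK2 are shown as examples. HXK1, GLK1 and TDH1 held each of the 3 short motifs searched, as did PYK2, which is not shown, and HXK2 held none of them. The capitals show the stress response element (STRE, AGGGG, which the activators Msn2 and Msn4 bind). It was searched on both strands, so that CCCCT also counts, in the 500 bases before each start codon. The stretches were chosen after the matches had been seen, and are from RefSeq build R64, read along the gene's strand.
HXK1: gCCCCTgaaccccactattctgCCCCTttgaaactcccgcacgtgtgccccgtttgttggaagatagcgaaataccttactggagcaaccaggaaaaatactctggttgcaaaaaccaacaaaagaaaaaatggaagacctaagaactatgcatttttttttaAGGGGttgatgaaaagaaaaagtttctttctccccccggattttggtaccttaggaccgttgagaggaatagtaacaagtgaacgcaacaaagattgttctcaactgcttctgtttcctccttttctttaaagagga
GLK1: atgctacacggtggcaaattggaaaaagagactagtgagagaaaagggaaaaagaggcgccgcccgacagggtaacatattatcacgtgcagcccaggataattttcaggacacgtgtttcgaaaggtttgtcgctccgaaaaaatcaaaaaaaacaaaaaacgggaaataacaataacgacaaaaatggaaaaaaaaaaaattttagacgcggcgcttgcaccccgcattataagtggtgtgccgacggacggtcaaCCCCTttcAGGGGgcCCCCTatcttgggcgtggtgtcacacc
TDH1: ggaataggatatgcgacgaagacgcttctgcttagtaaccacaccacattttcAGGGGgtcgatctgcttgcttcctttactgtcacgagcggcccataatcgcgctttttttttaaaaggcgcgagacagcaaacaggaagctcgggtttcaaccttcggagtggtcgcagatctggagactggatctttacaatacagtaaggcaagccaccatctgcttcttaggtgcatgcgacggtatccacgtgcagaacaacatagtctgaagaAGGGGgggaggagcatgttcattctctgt
HXK2: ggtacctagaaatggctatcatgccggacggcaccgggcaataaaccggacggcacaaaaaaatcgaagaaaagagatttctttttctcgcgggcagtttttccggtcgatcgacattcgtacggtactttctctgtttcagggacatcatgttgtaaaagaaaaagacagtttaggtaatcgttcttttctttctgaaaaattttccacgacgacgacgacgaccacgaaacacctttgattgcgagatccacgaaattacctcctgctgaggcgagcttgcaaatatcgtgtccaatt
They run from base −500 to −201 before the start codon for HXK1 (chrVI:255250-255549, minus strand), TDH1 (chrX:337771-338070, plus strand) and HXK2 (chrVII:23435-23734, plus strand), and from −440 to −141 for GLK1 (chrIII:50398-50697, plus strand). In the full 500 bases HXK1 and GLK1 each held 3 matches, TDH1 and TDH3 each 2, and ENO1, CDC19 and PYK2 each 1. HXK2, TDH2 and ENO2 held 0. Of 6019 genes, 34.0% held at least 1 match in such a window, 8.12% at least 2 and 1.83% at least 3. The core of the motif of Gcr1, the main activator of glycolytic genes (CTTCC or GGAAG), occurred 3 times in HXK1 and CDC19 and 2 times in TDH1, TDH2, ENO2 and PYK2. It occurred once in GLK1 and ENO1, and 0 times in HXK2 and TDH3. Of all genes 65.9% held at least 1 such match, 29.9% at least 2 and 10.2% at least 3. CACGTG, the E-box that Pho4 and Tye7 can bind, occurred 2 times in GLK1 and once each in HXK1, TDH1, TDH2 and PYK2. At least 1 match was held by 6.21% of all genes and at least 2 by 0.681%. No match of one motif overlapped a match of another in these 10 windows. A match is a run of letters, and binding was not measured.

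Of 12 other genes of glycolysis all 12 were tested at 285 to 360 min against 15 to 90 min, and 1 rose: GPM2, a minor relative of the phosphoglycerate mutase GPM1, by 2.27 ± 0.34 (adjusted p = 7.7e-06). It had 8.25, 8.52 and 8.76 log2 RPM (lowest, median, highest) at 285 to 360 min, against 5.81, 6.34 and 6.59 at 15 to 90 min. The median of the 12 was 0.47, beside 0.36 over all genes, and 1 of 12 is close to the 12.9% of all genes called higher. At 150 to 180 min against 105 to 135 min, GPM2 (2.02 ± 0.27, adjusted p = 2.96e-05) and PGK1, the phosphoglycerate kinase (1.06 ± 0.30, adjusted p = 0.0103), rose. Of the other lists, ADH5 (1.16 ± 0.24, adjusted p = 0.000976), MSN4 (1.47 ± 0.36, adjusted p = 0.004), TYE7 (1.08 ± 0.26, adjusted p = 0.00317) and GIS1, a regulator of the shift out of growth (1.09 ± 0.33, adjusted p = 0.0165), also rose there, where 8.14% of all genes were called higher. PGK1 and GIS1 were named after their values had been seen. Of 8 fermentation genes 4 could be tested, and the alcohol dehydrogenase gene ADH5 rose by 1.17 ± 0.24 at 285 to 360 min against 15 to 90 min (adjusted p = 0.000366). The median of the 4 was 0.55.

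Of 5 sequence relatives of the 10 genes, 1 passed the filter on low values, EMI2, a relative of GLK1. EMI2 had 8.26, 8.61 and 8.46 log2 RPM at 150, 165 and 180 min, against 6.22, 5.93 and 6.93 at 105, 120 and 135 min (2.08 ± 0.31, adjusted p = 6.66e-05). At 285 to 360 min it averaged 7.25 ± 0.52, against 7.43 ± 0.45 at 15 to 90 min (difference −0.18 ± 0.36, adjusted p = 0.708). For GLK1 this difference was 1.25, and the difference between the pair was not tested.

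Of 12 regulators of these genes 10 were tested and 5 rose at 285 to 360 min against 15 to 90 min. Of all genes 12.9% were called higher in this comparison. The median of the 10 tested was 1.00, beside 0.36 over all genes. TYE7, GCR1, MIG2 and RGT1 had a value in all 25 libraries, but MSN4 in 23, MIG1 and GIS1 in 22 and MIG3 in 21. A gene under 10 reads has no value. Late means of these low genes, from shallow libraries, can therefore be too high, and so can the median. How far was not tested. TYE7, an activator of glycolytic genes, rose by 2.42 ± 0.24 (adjusted p = 4.3e-08), having 8.30, 8.72 and 9.06 log2 RPM (lowest, median, highest) at 285 to 360 min, against 5.53, 6.46 and 6.65 at 15 to 90 min. MSN4 rose by 1.88 ± 0.37 (adjusted p = 0.000219, with a value in 5 of 6 libraries of each window). GCR1 rose by 1.14 ± 0.19 (adjusted p = 3.65e-05), MIG2, a glucose repressor, by 1.13 ± 0.23 (adjusted p = 0.000346), and RGT1, a repressor of hexose transporter genes, by 1.03 ± 0.19 (adjusted p = 0.000131). At 195 to 270 min against 105 to 180 min, TYE7 (1.04 ± 0.24, adjusted p = 0.002), MSN4 (1.29 ± 0.34, adjusted p = 0.00629) and GPM2 (1.70 ± 0.34, adjusted p = 0.00065) rose.

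The 10 genes fell into courses that can be described by their likeness to each other. Genes of 1 library share its depth and scaling. Over the 25 libraries Pearson's r was 0.98 between TDH1 and ENO1, 0.95 between ENO1 and PYK2, 0.91 between HXK1 and GLK1, and 0.67 between HXK1 and TDH1. The dominant copy TDH3 was as close, with 0.97 to TDH1, 0.96 to ENO1 and 0.94 to ENO2. TDH1 and TDH3 thus did not form separate courses, though the way their shared reads were divided can affect their likeness. Within the other families r was 0.88 between ENO1 and ENO2 and 0.84 between CDC19 and PYK2. It was −0.13 between HXK1 and HXK2 and −0.31 between HXK2 and GLK1. HXK2 had negative values with all the other 9, from −0.71 with TDH1 to −0.13 with HXK1. Among 2606 other genes with a symbol and a value in all 25 libraries, the course most like that of TDH1 was PAI3, an inhibitor of proteinase A (r = 0.993), that of ENO1 was ICY1 (0.983), that of GLK1 was TFS1, an inhibitor of carboxypeptidase Y (0.982), and that of PYK2 was GPH1, glycogen phosphorylase (0.981). HXK1 was most like STF2 (0.939), TDH3 like POR1, the mitochondrial porin (0.982), and TDH2 like DDR48 (0.967). ENO2 was most like GCV3, a subunit of glycine decarboxylase (0.971), CDC19 like LSC1, a subunit of succinyl-CoA ligase (0.937), and HXK2 like SAM1, an S-adenosylmethionine synthetase (0.903).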

How the data were processed

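The authors deposited 1 table of log2 values with a column per library. Bowtie and build R64 are named in the submitters' processing notes; version, settings, counter, annotation and strand use are not given in the sources used for this work. The values are log2 RPM: their powers of 2 add up to 1000000 in every column. They were not scaled to 0 min, although the design text speaks of such scaling. The lowest listed value equals 10 reads in every column, and a gene below that has no value. Dividing by the step of 1 read recovered reads and depth (94.9 to 97.5% of values under 200 reads came out within 0.02 of a whole number). Of 6701 rows, 51 name no gene (0% of reads) and 2 share a name, which left 6648.

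Genes with a value at 0 min and at least 4 of 6 in each window were tested (4742), with limma 3.58.1 in R 4.3.3 on the log2 values, 1 mean per group over all 25 libraries and no pseudocount. The course was a natural cubic spline of 4 degrees of freedom over 24 libraries. Ratios were compared with exact permutation tests over 924 splits (SciPy 1.17.1). The code was tested on simulated data. RPKM used coding lengths. Sequence came from the RefSeq R64 genome, with Biopython 1.88 for alignment. The 10 genes, the gene lists and the tests were chosen with earlier results of these data known. Named besides the 10 were list genes called in a comparison of the windows of 6, the gene of largest late difference in each list, and the gene of most similar course for each of the 10. Alternatives were other scalings and filters, a pseudocount of 1 RPM, a lag-1 correlation of 0.33 between consecutive libraries, every second library, 1 or 3 libraries left out, 3 spline degrees of freedom and, added after the data were seen, voom weights and windows of 3 libraries. Intervals cover counting error only.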

Additional observations from a re-analysis of the deposited data

How the results depend on the processing

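No paired analysis was possible because the labels carry no replicate numbers. Of 2010 values for single genes under the alternatives, 1953 kept their direction and side of the threshold, 23 lost a call, 10 gained one and 24 changed sign. Of these 24, GLK1 at 195 to 270 min against 105 to 180 min was a called difference (−0.06 without 105, 120 and 135 min). The others were uncalled before and after. Centring gave −0.07 (HXK2) and 0.00 (CDC19) at 15 to 90 min against 0 min, −0.16 (ENO2) and −0.11 (CDC19) at 285 to 360 min against 15 to 90 min, and 0.02 (HXK2) and 0.10 (TDH3) at 105 to 135 min against 60 to 90 min. Quantile normalization gave −0.07 (TDH3, 15 to 90 min), 0.05 (HXK2, 105 to 180 min), 0.13 (TDH3) and −0.08 (CDC19) at 105 to 135 min, and 0.00 for TDH3 at 195 to 270 min and at 150 to 180 min. This scaling gives every library the same spread of values, so it cannot show a change in a gene that keeps its rank among all genes. TDH3 was the highest of the 10 in every window, so its values under this scaling say little about its rise. Without 105, 120 and 135 min the values were −0.72 (HXK1, 195 to 270 min), 0.05 (HXK2) and 0.28 (TDH2) at 105 to 180 min. ENO2 was at −0.03 at 105 to 180 min with every second library, and TDH3 at 0.05 at 105 to 135 min with the lag-1 correlation. Single libraries left out gave −0.11 to 0.68 for GLK1 (negative without 165 or 180 min, −0.11 and −0.09) and −0.23 to 0.01 for TDH2 (positive without 135 min) at 105 to 180 min, −0.04 to 0.16 for CDC19 (negative without 75 or 105 min, −0.03 and −0.04) at 105 to 135 min, and 0.03 for TDH3 there without 135 min. Leaving out 105, 120 and 135 min also moved the number of the 10 genes called. It became 1 at 15 to 90 min against 0 min (49 of all genes, against 7). At 105 to 180 min against 15 to 90 min it became 5 (226 of all genes, against 0). At 195 to 270 min against 105 to 180 min it became 1 (127 of all genes, against 394). The spread pooled over all groups changes without these libraries, and its part in these counts was not tested. Centring libraries on their medians left 3 of the 10 called at 285 to 360 min against 15 to 90 min, and 473 of all genes against 771 (486 with quantile normalization). GLK1 kept its call in that comparison in 30 of 35 alternatives (adjusted p up to 0.194), HXK2 in 31 (difference from −1.58 to −0.92), PYK2 in 34, and TDH1 and ENO1 in all 35. Leaving out 1 library at a time gave 0 to 0 of the 10 called at 15 to 90 min against 0 min (5 to 9 of all genes), 0 to 0 at 105 to 180 min against 15 to 90 min (0 to 1), 2 to 4 at 195 to 270 min against 105 to 180 min (301 to 535), 4 to 5 at 285 to 360 min against 15 to 90 min (713 to 826), 0 to 0 at 105 to 135 min against 60 to 90 min (0 to 10), 5 to 5 at 150 to 180 min against 105 to 135 min (481 to 864) and 6 to 7 for the course (1721 to 1948). With every second library the ratio differences were 1.93 (HXK1 over HXK2), 2.48 (GLK1 over HXK2), 2.5 (TDH1 over TDH3), −0.30 (TDH2 over TDH3), 1.76 (ENO1 over ENO2) and 1.12 (PYK2 over CDC19), each with an exact permutation p = 0.1, the smallest that 3 against 3 allows; with 1 library left out they ranged from 1.5 to 1.89, 2.18 to 2.43, 2.38 to 2.47, −0.27 to −0.20, 1.85 to 1.94 and 1.03 to 1.17 in the same order. Other counts over all genes that differed by more than 1.5 times were 2, 4, 4 and 12 against 7 (15 to 90 min against 0 min: every second library, quantile normalization, lag-1 correlation, voom), 0 to 37 against 7 (105 to 135 min against 60 to 90 min), 314 against 690 (150 to 180 min against 105 to 135 min, lag-1 correlation) and 1204 against 1866 (course, genes with a value in all 25 libraries). edgeR and DESeq2 were planned for recovered reads and not run, because the deposited unit is log2; voom weights were used instead. At 345 min, depth limited PYK2 to 27 reads and HXK2 to 46.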
